A study of Rattus norvegicus with 9 samples.

Results

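The Notch pathway was followed through 9 of its genes, the ligands Jag1, Jag2 and Dll1, the receptors Notch1, Notch2 and Notch3, the modifying enzyme Lfng, and the target genes Hes1 and Hey1. They were taken by name, as all probe sets that the platform table assigns to 1 of these symbols alone, which gave 9 of the 14217 genes so named and 10 of the 31099 probe sets on the array, with 2 for Notch1 and 1 for each other gene. Tissue from Sprague-Dawley rat embryos of embryonic day 13, with no transgene or drug treatment named, was compared in 3 groups of 3 arrays. These were the ureteric bud (UB), the Wolffian duct left attached to mesoderm (WD with mesoderm, labelled WD+IM) and the bare Wolffian duct (WD). Each array held RNA from a pool of about 100 UBs, about 50 ducts with mesoderm or about 100 bare ducts, so single embryos were not measured. Only the UBs were exposed to trypsin, lightly, and an effect of the enzyme cannot be told apart from one of the tissue. The labels call the arrays biological replicates, so a p-value here rests on how far pools of 1 tissue differ.

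Notch signalling passes between touching cells. A ligand of the Jagged or Delta-like kind on 1 cell binds a Notch receptor on its neighbour, the receptor is cut by an ADAM protease and then by gamma-secretase, and its freed intracellular part joins the DNA-binding protein RBPJ to switch on targets such as the HES and HEY repressors. Fringe enzymes such as LFNG add sugars to the receptor and change which ligands it answers to. In the developing kidney the pathway is best known for patterning the nephron precursors and the cell types of the collecting duct. In mouse, Jag1 is found in the bud, and forced Jag1 expression in the duct has been reported to disturb budding. In vessels, Hey1 is a well-known target in endothelial and mural cells.

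The tissues carried the markers of their labels, but both duct groups also carried markers of other cells. The tip gene Ret, the GDNF receptor, had signals of 38887 to 49028 intensity units in the UB, 1336 to 2463 in the WD with mesoderm and 6340 to 8168 in the WD. Of 11 endothelial markers measured, 9 were called higher and 0 lower in the WD with mesoderm than in the WD, with a summed signal of 45199 to 45694 against 5196 to 6673. Of 7 mesenchyme markers tested, 7 were called lower in UB than in WD, and the bare duct still held a summed mesenchyme signal of 82581 to 116023. No marker measured was listed at 0. The median signal of an array was between 534 and 897, and precision is limited by having 3 arrays a group. Spiked controls split the arrays, since bioC over bioB lay between 2.87 and 2.99 for the 3 UB arrays and was 2.93 for replicate 3 of the WD with mesoderm, while the remaining 5 arrays had 1.02 to 1.23. Beta-actin, whose signal at the 3' end over the 5' end tells of RNA breakdown, had ratios of 1.48 to 2.30 in the UB, 1.47 to 1.92 in the WD with mesoderm and 2.19 to 4.87 in the WD.

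A probe set was tested if its signal lay above the 40th percentile of the array on at least 3 of the 9 arrays. By that rule 7 of the 9 genes were tested, and Notch2 and Dll1 were not. Differences are log2(signal + 46), the group named first minus the other, with the standard error of a limma fit across all 20330 probe sets tested, and a difference was called at an adjusted p under 0.05. Across the tested genes 1 of 7 was called between UB and WD, where 29.9% of all probe sets were called (11.3% higher, 18.6% lower). Between WD with mesoderm and WD the count was 2 of 7, against 12.7% of all probe sets (5.62% higher, 7.06% lower), and between UB and WD with mesoderm it was 3 of 7, against 25.5% (11% higher, 14.5% lower). Each tissue enters 2 of these comparisons, which are therefore not independent. The median difference over the tested genes was -0.53, 0.10 and -0.51 in that order, beside medians of -0.12, -0.04 and -0.05 over all probe sets.

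**Figure D1:**
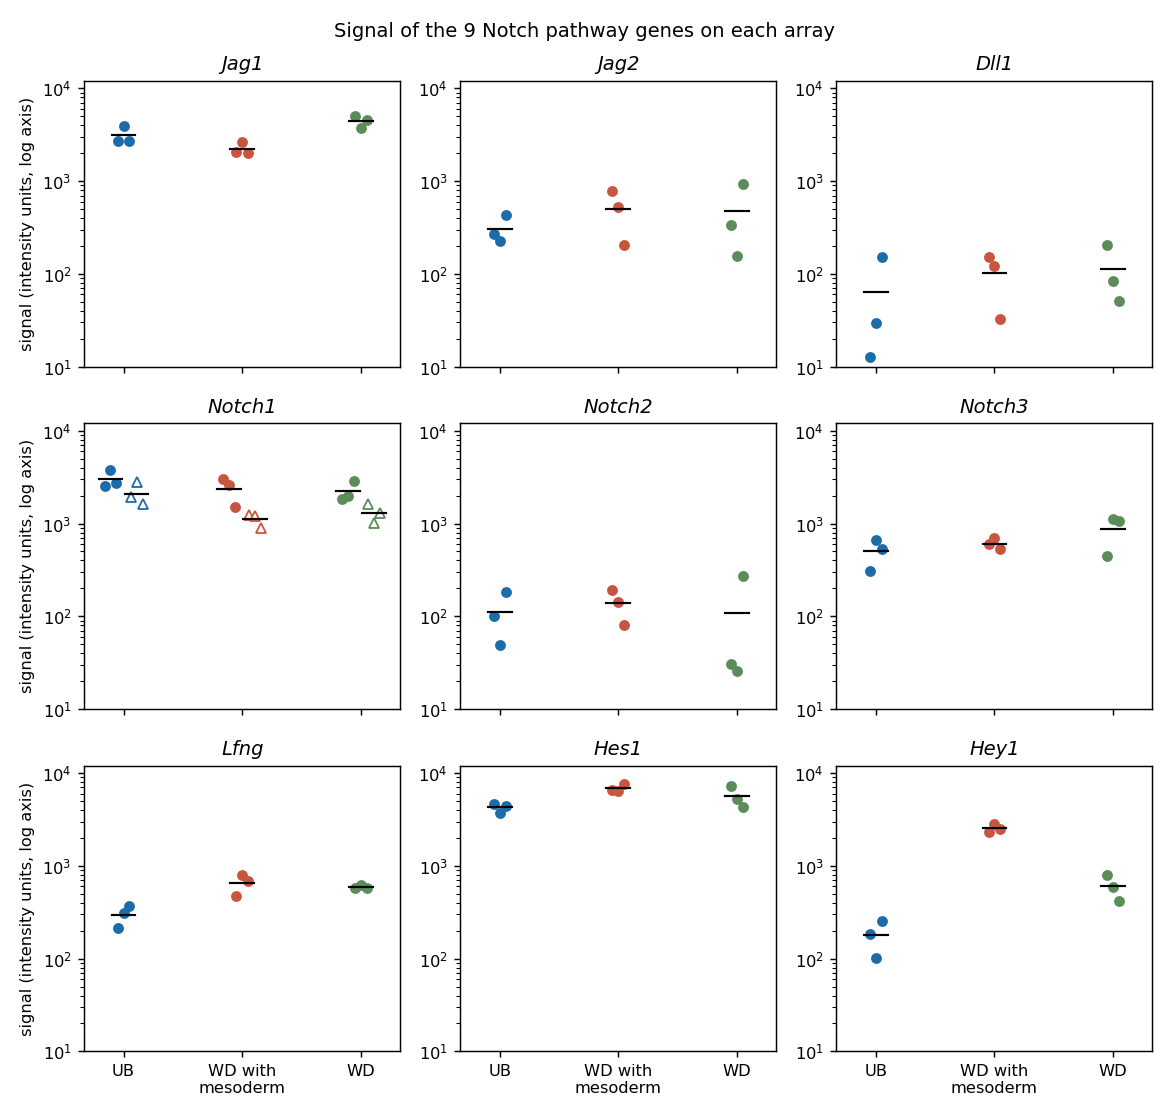
Signal in intensity units on a log axis for each of the 9 genes, with 3 points per tissue for the 3 arrays and a black line at their mean. Open triangles are the second probe set of Notch1. Hey1 shows 3 separate levels, from 100.5 to 254 in the UB, 2340 to 2851 in the WD with mesoderm and 416 to 798 in the WD, while Notch2 and Dll1 stay below 300 on every array.

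Hey1, a basic helix-loop-helix repressor and Notch target, separated all 3 tissues. Its signal was 185, 100.5 and 254 in the UB, 2340, 2851 and 2482 in the WD with mesoderm and 798, 585 and 416 in the WD. No array of any tissue overlapped with another tissue. Hey1 was higher in the WD with mesoderm than in the WD by 2.05 ± 0.33 (adjusted p = 0.00169), a 4.14-fold difference. It was lower in UB than in the WD with mesoderm by -3.58 ± 0.33 (adjusted p = 6.20e-06) and lower in UB than in WD by -1.53 ± 0.33 (adjusted p = 0.00543). Groups without overlap in the same direction were found for 13.5% of all probe sets in the WD with mesoderm against the WD, for 22.6% in the UB against the WD with mesoderm and for 29.5% in the UB against the WD. On the UB arrays Hey1 stood below the 40th percentile, and the gene entered the test through the other tissues.

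The Hey1 differences of the WD with mesoderm against the WD and of the UB against the WD with mesoderm were each called under all 19 alternatives run. Between UB and WD the call was lost with quantile normalization (-0.83 ± 0.36, adjusted p = 0.114), with the spike batch as a term (-1.48 ± 0.62, adjusted p = 0.238) and after adjustment for the beta-actin ratio (-1.36 ± 0.46, adjusted p = 0.0660). Within the 5 arrays of low spike ratio, Hey1 was 2.07 ± 0.34 higher in the WD with mesoderm than in the WD (adjusted p = 0.00621). Within the 4 arrays of high spike ratio, which hold a single array of WD with mesoderm, it was -3.55 ± 0.51 lower in UB than in the WD with mesoderm (adjusted p = 0.00702). No such set holds both UB and WD. The labels name no batch, and the spike batch here is the split of the arrays at a spike ratio of 2. With it as a term, UB and WD are separable only through the WD with mesoderm arrays, a single one of which has a high ratio. The standard error of the Hey1 UB minus WD difference was 0.62 with that term and 0.33 without it.

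The summed signals of 4 marker lists had the same order across the tissues as Hey1, without overlap. The summed signal of 11 endothelial markers was 3339 to 4411 in the UB, 45199 to 45694 in the WD with mesoderm and 5196 to 6673 in the WD, with median differences of 2.50 for the WD with mesoderm against the WD and -1.10 for the UB against the WD. For 7 smooth muscle and pericyte markers the sums were 3660 to 4272, 30015 to 37228 and 10945 to 12180 in the same tissues, with medians of 1.41 and -1.34. For 8 mesenchyme markers they were 6427 to 8867, 182139 to 225028 and 82581 to 116023, with medians of 1.41 and -3.31 over the 7 tested. For 7 tubule and nephron precursor markers they were 9430 to 11095, 83770 to 93927 and 60767 to 65012, with medians of 0.54 and -3.39. The members of this last list were split between the duct groups, with 3 called higher and 2 lower in the WD with mesoderm. The part of these cells in the Hey1 difference was not tested. In bulk tissue, fewer cells of a kind and less RNA per cell cannot be told apart.

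**Figure D2:**
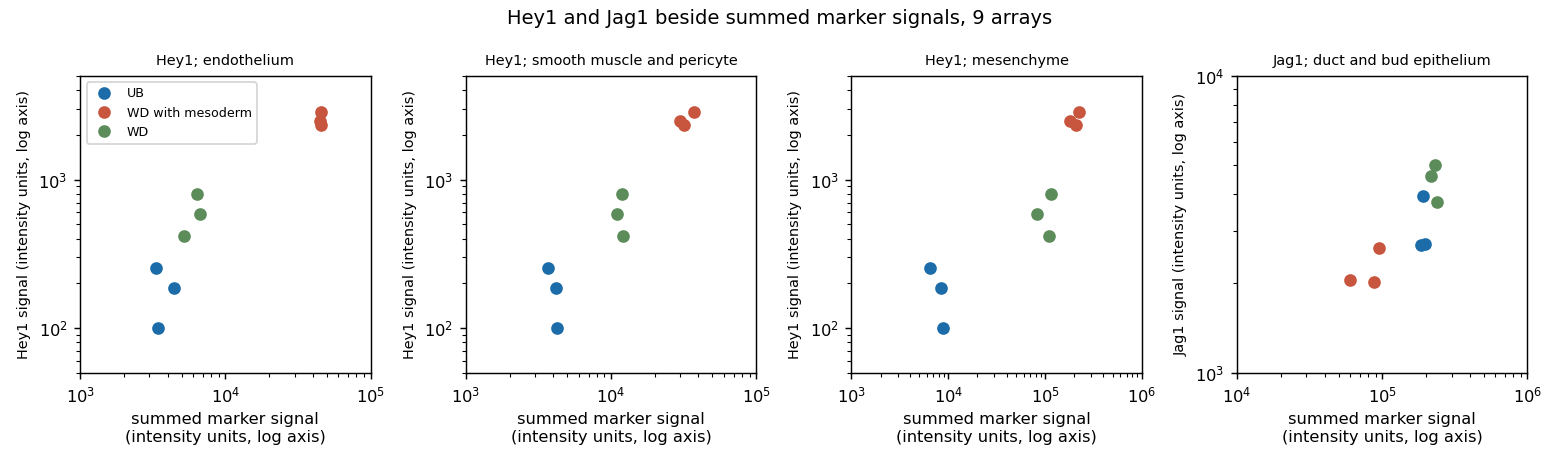
Signal of Hey1 (3 panels) and Jag1 (last panel) against the summed signal of a marker list on the same array, both in intensity units on log axes, with 1 point per array. The WD with mesoderm arrays lie highest for Hey1 and for the endothelial, smooth muscle and mesenchyme sums, the UB arrays lowest. For Jag1 the WD with mesoderm arrays are lowest on both axes.

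The genes whose levels followed Hey1 most closely over the 9 arrays were Pknox2, a homeobox transcription factor, Olfml3, a secreted olfactomedin-domain protein, and Mme, the membrane peptidase neprilysin. Likeness was the root mean square difference of log2 values after each gene was centred on its own mean, and 10726 genes were compared. The distances were 0.241 for Pknox2, 0.276 for Olfml3 and 0.330 for Mme, where Hey1 itself had an SD of 1.60 over the arrays. Olfml3 averaged 1131 in the UB, 14684 in the WD with mesoderm and 3358 in the WD.

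Jag1, a Jagged ligand, was lower in the WD with mesoderm than in the bare WD. Its signal was 2720, 3935 and 2688 in the UB, 2050, 2620 and 2019 in the WD with mesoderm and 5023, 3760 and 4609 in the WD. The WD with mesoderm arrays all lay below the WD arrays, while the UB overlapped with the WD through UB replicate 2. The difference between WD with mesoderm and WD was -0.99 ± 0.20 (adjusted p = 0.00596), a ratio of 0.504. Groups without overlap in that direction were found for 16% of all probe sets. Between UB and WD the difference was -0.53 ± 0.20 (95% interval -0.95 to -0.10, adjusted p = 0.0624), and it was called without UB replicate 2 (-0.70, adjusted p = 0.0280). Between UB and WD with mesoderm the groups did not overlap, as for 20% of all probe sets in that direction, but the difference of 0.46 ± 0.20 was not called (adjusted p = 0.112). The UB lay between the duct groups in its mean. Scaling moved both of its differences, since with median centring Jag1 in the UB exceeded that in the WD with mesoderm by a called difference (0.82 ± 0.24, adjusted p = 0.0152) and differed from the WD by -0.07 (0.853). The UB minus WD difference was called with array weights (-0.63, 0.0186) and in the fit on gene means of probe sets (-0.53, 0.0416).

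Duct epithelium markers moved with Jag1. Of 9 such markers, 0 were called higher and 9 lower in the WD with mesoderm than in the WD, with a summed signal of 60364 to 95231 against 214876 to 237025 and a median difference of -1.66. Their part in the Jag1 difference was not tested. After adjustment for the beta-actin ratio the Jag1 call was lost (-0.75 ± 0.29, adjusted p = 0.198), where beta-actin ratios were 1.47 to 1.92 in the WD with mesoderm and 2.19 to 4.87 in the WD. Within the 5 arrays of low spike ratio the difference was -0.92 ± 0.23 (adjusted p = 0.0388). The genes with the levels most like those of Jag1 were Nbeal2, Mfhas1 and Vill, a villin-like protein, at distances of 0.127, 0.145 and 0.153, where Jag1 had an SD of 0.478.

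The other ligands lay low on the arrays. Jag2 had signals of 267, 228 and 431 in the UB, 774, 528 and 206 in the WD with mesoderm and 333, 155 and 940 in the WD. All 3 tissues overlapped, and the spread within the WD was wider than any difference between tissues. The intervals were accordingly wide, with a UB minus WD difference of -0.29 (95% interval -1.60 to 1.01) and a WD with mesoderm minus WD difference of 0.22 (95% interval -1.08 to 1.52). Dll1, the Delta-like ligand best known from somites and nephron precursors, had signals of 12.6, 29.5 and 151 in the UB, 151, 120.3 and 32.6 in the WD with mesoderm and 205, 83.1 and 51.6 in the WD. It stood above the 40th percentile on 0 of the 9 arrays and was not tested. Without the filter its differences were not called in any comparison (adjusted p = 0.469 to 0.943).

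**Figure D3:**
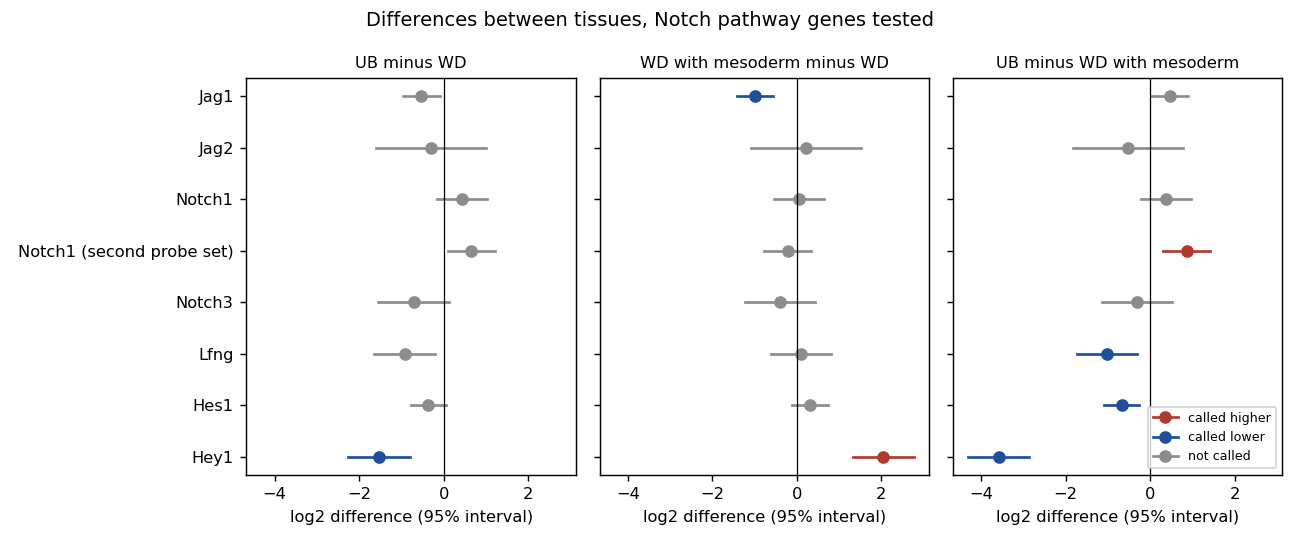
Difference between tissues on the log2(signal + 46) scale with its 95% interval, for the 7 genes tested and the second probe set of Notch1, in 3 comparisons. Red marks a difference called higher, blue lower and grey not called. Hey1 is called in each panel, Jag1 in the middle panel, and Lfng, Hes1 and the second Notch1 probe set in the right panel.

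Notch1, the receptor above the 40th percentile on all 9 arrays, was read by 2 probe sets that gave different calls. The probe set that stands for the gene read 2538, 3755 and 2724 in the UB, 3051, 2593 and 1499 in the WD with mesoderm and 1836, 1997 and 2871 in the WD. All tissues overlapped there, with a UB minus WD with mesoderm difference of 0.37 ± 0.27 (95% interval -0.22 to 0.96, adjusted p = 0.370). The second probe set read 1926, 2771 and 1614 in the UB, 1222, 1216 and 898 in the WD with mesoderm and 1621, 1011 and 1307 in the WD. On it the UB lay above the WD with mesoderm without overlap, as for 20% of all probe sets, by 0.87 ± 0.26 (adjusted p = 0.0252). Its UB minus WD difference of 0.65 ± 0.26 was not called (adjusted p = 0.0726).

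The call on the second Notch1 probe set rested on single arrays. It was lost without UB replicate 1 (adjusted p = 0.0637), UB replicate 2 (0.121) and WD with mesoderm replicate 3 (0.0784), and within the arrays of high spike ratio (0.0648). Scaling mattered for both probe sets, since median centring shifted the median of all UB minus WD differences to 0.34, against -0.12 as deposited. With median centring the first probe set was called higher in UB than in WD (0.89 ± 0.25, adjusted p = 0.0107) and than in the WD with mesoderm (0.73 ± 0.25, adjusted p = 0.0321).

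Notch2 and Notch3 showed no difference between the tissues that was called. Notch3, the receptor known from pericytes and vascular smooth muscle, had signals of 310, 661 and 527 in the UB, 602, 693 and 526 in the WD with mesoderm and 450.3, 1108 and 1054 in the WD. The tissues overlapped in each comparison, with a UB minus WD difference of -0.71 ± 0.38 (95% interval -1.54 to 0.12, adjusted p = 0.179). WD replicate 1 was the low array of its group, and without it that difference was -1.10 (adjusted p = 0.0439). Smooth muscle and pericyte markers were higher in the WD with mesoderm than in the WD for 4 of 7 and lower for 0 of 7, while the Notch3 difference there was -0.40 ± 0.38 (adjusted p = 0.531). Notch2, read by a single probe set, had signals of 101, 49.6 and 181 in the UB, 193, 143 and 80.2 in the WD with mesoderm and 30.4, 25.4 and 271 in the WD, and like Dll1 it was above the 40th percentile on 0 of 9 arrays. Without the filter it was not called in any comparison (adjusted p = 0.645 to 0.826).

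The promoters of 8 of the 9 genes are given in RefSeq's GRCr8 annotation, as 250 bases before and 50 after the gene's start, and Jag2 has 2 starts. Hey1 had no promoter entry and was not searched. They were searched on both strands for the core of the RBPJ site, TGGGAA, since Hes1 and Lfng are textbook targets of the pathway. The core lay in the promoters of 4 of the genes, Hes1, Lfng, Dll1 and Notch3, and in 25.7% of all 33469 promoters of that length, while 2 or more copies lay in 3.85% of them. Hes1, Lfng and Dll1 each had 2 copies. The Hes1 and Lfng promoters are shown because both genes were called in the same comparison below, with the core in capitals (TTCCCA where it lies on the opposite strand). Hes1 is on the minus strand at chr11:84212996-84213295 and Lfng on the minus strand at chr12:19152869-19153168.
Hes1: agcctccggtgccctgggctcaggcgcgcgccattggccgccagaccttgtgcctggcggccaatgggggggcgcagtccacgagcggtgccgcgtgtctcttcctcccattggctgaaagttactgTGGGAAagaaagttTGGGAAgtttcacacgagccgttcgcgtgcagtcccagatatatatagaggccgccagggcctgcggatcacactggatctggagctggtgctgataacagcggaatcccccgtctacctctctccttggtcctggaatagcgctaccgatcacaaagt
Lfng: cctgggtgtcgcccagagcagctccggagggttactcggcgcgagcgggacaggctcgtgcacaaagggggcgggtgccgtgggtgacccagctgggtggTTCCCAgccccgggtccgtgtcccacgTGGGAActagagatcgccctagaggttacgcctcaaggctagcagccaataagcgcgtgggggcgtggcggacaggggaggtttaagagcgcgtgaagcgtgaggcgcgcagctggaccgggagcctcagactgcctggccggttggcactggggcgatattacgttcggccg
In Hes1 both copies run with the gene, their first bases at -123 and -109 from the start. In Lfng the copy at -123 runs with the gene and the copy at -150 against it. The longer form GTGGGAA, which overlaps the core, occurred once in each of these promoters and in 6.29% of all. The N-box CACNAG, which HES proteins bind, had 4 matches in the Hes1 promoter and 1 in that of Lfng, and at least 1 in 43.1% of all promoters. A match is a run of letters and not evidence of binding.

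Hes1, a repressor with 2 copies of the RBPJ core in its promoter, lay between percentiles 78.3 and 88.9 of signal on every array. It read 4683, 3719 and 4445 in the UB, 6517, 6398 and 7663 in the WD with mesoderm and 7326, 5307 and 4292 in the WD. The UB and WD with mesoderm did not overlap, and the WD spanned the range between them and overlapped with both. Hes1 was lower in UB than in the WD with mesoderm by -0.68 ± 0.19 (adjusted p = 0.0210), a ratio of 0.626, where groups without overlap in that direction were found for 22.6% of all probe sets. The other differences were not called, with -0.37 ± 0.19 for UB minus WD (adjusted p = 0.166) and 0.31 ± 0.19 for WD with mesoderm minus WD (adjusted p = 0.319). Without WD replicate 3 the UB minus WD difference was called (-0.54, adjusted p = 0.0490), and with median centring its sign turned (0.09).

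The Hes1 call was lost without UB replicate 2 (adjusted p = 0.0852), without WD with mesoderm replicate 3 (0.0666), after median centring (-0.31 ± 0.25, 0.364) and when the spike batch was a term (-0.84 ± 0.27, 0.0765). It was kept within the arrays of high spike ratio (-0.84 ± 0.18, adjusted p = 0.0284). Tmem164, Kiz and Zdhhc17 had the levels most like those of Hes1, at distances of 0.123, 0.132 and 0.141, where Hes1 had an SD of 0.368.

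Lfng, the fringe glycosyltransferase, was lowest in the UB. Its signal was 215, 308 and 372 in the UB, 474, 807 and 681 in the WD with mesoderm and 584, 624 and 577 in the WD. All UB arrays lay below all arrays of the other tissues, and the duct groups overlapped with each other. The UB lay below the WD without overlap for 29.5% of all probe sets, and below the WD with mesoderm for 22.6%. The UB minus WD with mesoderm difference was -1.02 ± 0.33 (adjusted p = 0.0386), a ratio of 0.493, and the UB minus WD difference was -0.92 ± 0.33 (95% interval -1.64 to -0.21), which was not called (adjusted p = 0.0516). That second difference was -0.27 with quantile normalization (0.617) and -0.46 with median centring (0.333), and it was called with array weights (-1.10, 0.0152) and in the fit on gene means of probe sets (-0.92, 0.0332). The Lfng signal lay between percentiles 36 and 51.5, and its call was lost in 11 of 18 alternatives. These included leaving out UB replicate 1 (adjusted p = 0.158), UB replicate 2 (0.0822), WD with mesoderm replicate 2 (0.141) or WD with mesoderm replicate 3 (0.0837), and quantile normalization, which moved the difference to -0.53 ± 0.36 (0.332). Klhdc8b, Hap1 and Serpinf1, the secreted protein PEDF, had the levels most like those of Lfng, at distances of 0.174, 0.181 and 0.182, where Lfng had an SD of 0.549.

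**Figure D4:**
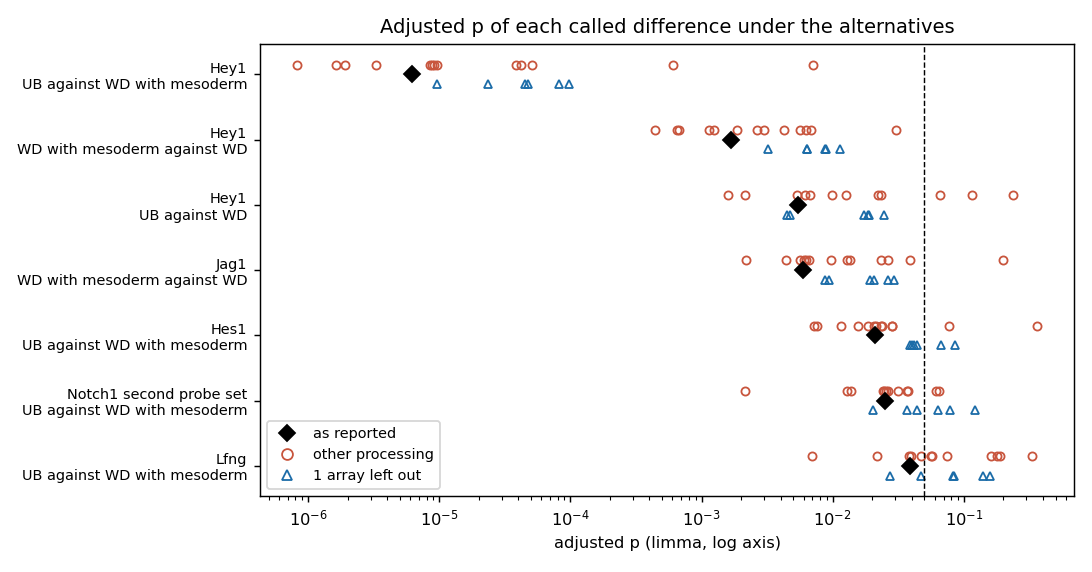
Adjusted p on a log axis for the 7 differences called among the Notch pathway genes, as reported (diamond), under other processing (circles) and with 1 array left out (triangles). The dashed line is the threshold of 0.05. Both Hey1 differences that involve the WD with mesoderm stay left of it throughout, and Lfng crosses it in 11 of 18 alternatives.

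Beyond the 9 genes, 69 other genes of the pathway were followed by role, of which 56 had a probe set of their own and 47 were tested. Between UB and WD 2 were called higher and 12 lower, 29.8% of the list, beside 29.9% of all probe sets, and with median centring that split turned to 9 higher and 3 lower. Between WD with mesoderm and WD 1 was called higher and 3 lower, 8.51% beside 12.7% (2 and 0 with median centring, 4 and 3 with quantile normalization). In UB against WD with mesoderm 2 were called higher and 8 lower, 21.3% beside 25.5% (7 and 4 with median centring). In each comparison the share called was therefore close to or below that of the whole array. The median differences of the list were -0.15, 0.02 and -0.12. Of the 28 calls made in the 3 comparisons, 7 were kept under every alternative run, with the spike batch term leaving 2 of the 14 between UB and WD. Those kept belong to Dlk1, Dtx4, Mfng, Numbl and Tle1.

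Dlk1, a membrane protein related to the Delta ligands that lacks their receptor-binding DSL domain, was low in the UB and high in both duct groups. Its signal was 172, 210.2 and 153 in the UB, 5933, 8248 and 6019 in the WD with mesoderm and 4753, 4392 and 5239 in the WD. The UB was lower than the WD with mesoderm by -4.91 ± 0.20 (adjusted p = 6.06e-09) and lower than the WD by -4.44 ± 0.20 (adjusted p = 3.52e-08). The UB signals lay below the 40th percentile of their arrays, so Dlk1 entered the test through the 6 duct arrays and the size of the difference rests on UB signals not shown to be above background. Between the duct groups, which did not overlap, the difference of 0.47 ± 0.20 was not called (adjusted p = 0.136). Groups without overlap in that direction were found for 13.5% of all probe sets. The endothelial, smooth muscle and pericyte, mesenchyme, and tubule and nephron precursor sums given above for Hey1 all had the same order. The part of these cells in the Dlk1 difference was not tested.

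Dtx4, a member of the Deltex family of ubiquitin ligases that act on Notch, was the gene of the list with the largest rise in the UB. It read 9583, 11109 and 8586 in the UB, 1251, 1039 and 1258 in the WD with mesoderm and 1637, 2050 and 2265 in the WD. No tissues overlapped. The UB was higher than the WD with mesoderm by 2.99 ± 0.18 (adjusted p = 1.45e-07) and higher than the WD by 2.28 ± 0.18 (adjusted p = 3.15e-06). The 4.84-fold rise over the WD was called on the weaker probe set of Dtx4 too, at 1.19 ± 0.38 (adjusted p = 0.0339). Of 5 bud tip markers, 5 were called higher in UB than in WD, and 5 than in the WD with mesoderm, beside 11.3% and 11% of all probe sets. In the WD with mesoderm against the WD, 2 of them were called higher and 2 lower. The part of bud tip cells in the Dtx4 differences was not tested. Dtx4 was lower in the WD with mesoderm than in the WD by -0.72 ± 0.18 (adjusted p = 0.0204), a call lost in 8 of 19 alternatives. Among them were leaving out WD replicate 2 (0.0587), WD replicate 3 (0.0571) or WD with mesoderm replicate 2 (0.0717), and the fit on gene means of probe sets (-0.38, 0.230). The weaker Dtx4 probe set was not called in this comparison (-0.04 ± 0.38, adjusted p = 0.95).

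**Figure D5:**
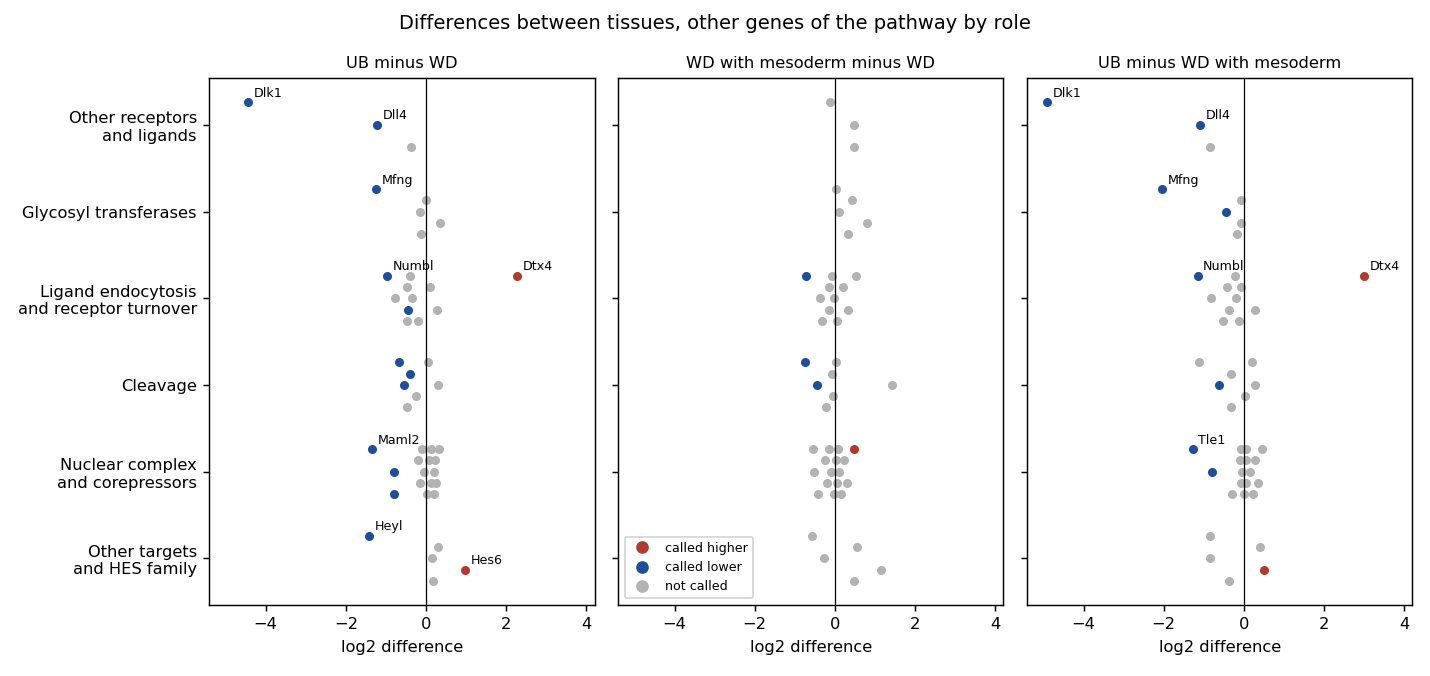
Difference between tissues on the log2(signal + 46) scale for the 47 other pathway genes tested, 1 point per gene, in rows by role and in 3 comparisons. Red marks a difference called higher, blue lower and grey not called, and called genes beyond 0.9 are named. Dlk1 and Dtx4 lie farthest out, and most points of the nuclear complex lie near 0.

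Among the other sugar-adding enzymes, Mfng, a fringe like Lfng, was the member that differed most. It read 361, 294 and 429 in the UB, 1620, 1678 and 1546 in the WD with mesoderm and 965, 754 and 1042 in the WD, without overlap. Of all probe sets, 22.6% lay lower in UB than in the WD with mesoderm without overlap and 29.5% lower than in the WD. For the WD with mesoderm above the WD the share was 13.5%. Mfng was lower in UB than in the WD with mesoderm by -2.04 ± 0.25 (adjusted p = 5.61e-05) and than in the WD by -1.25 ± 0.25 (adjusted p = 0.00301), the second call being lost with the spike batch term (adjusted p = 0.203). The WD with mesoderm minus WD difference of 0.79 ± 0.25 was not called (adjusted p = 0.0544). Rfng, the remaining fringe, was lower in UB than in the WD with mesoderm by -0.45 ± 0.15 (adjusted p = 0.0485), a call lost in 13 of 19 alternatives, and its other probe set differed by -0.16 ± 0.26 (adjusted p = 0.713). For Rfng the adjusted p was 0.153, 0.107 and 0.107 without UB replicates 1, 2 and 3 and 0.0800 and 0.176 without WD with mesoderm replicates 1 and 2. The enzymes were called for 1 of 5 between UB and WD, 2 of 5 between UB and WD with mesoderm and 0 of 5 between the duct groups, beside 29.9%, 25.5% and 12.7% of all probe sets.

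Of the further ligands and receptors, Dll4, an endothelial Delta ligand, was lower in UB than in WD (-1.21 ± 0.36, adjusted p = 0.0257) and than in the WD with mesoderm (-1.09 ± 0.36, adjusted p = 0.0443). It did not differ by a call between the duct groups (-0.12 ± 0.36, adjusted p = 0.863), although 9 of 11 endothelial markers did. All 3 UB arrays were below the 40th percentile, so Dll4 entered the test through 5 duct arrays, 3 of them WD. With quantile normalization its differences were -0.52 against the WD (0.294) and -0.57 against the WD with mesoderm (0.273), and with median centring -0.75 (0.122) and -0.73 (0.146). Its UB minus WD call was also lost with a spike batch term (0.605), after adjustment for beta-actin (0.0700), and without any single UB array (adjusted p = 0.0545, 0.0687 and 0.0703 for replicates 1, 2 and 3), without WD replicate 2 (0.0699) and without WD replicate 3 (0.0504). Its UB minus WD with mesoderm call was lost without UB replicates 1, 2 or 3 (0.0824, 0.118 and 0.105) and without WD with mesoderm replicates 1 or 2 (0.170 and 0.0584). A second Dll4 probe set stood above the 40th percentile on 0 arrays and was not tested. Its mean signal was 135.6 in the UB, 355.4 in the WD with mesoderm and 125.8 in the WD, an order unlike that of the tested one. Notch4, the endothelial receptor, was tested and not called in any comparison.

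The other HES and HEY genes were called in both directions. Hes6, a HES protein known to oppose Hes1, read 7996, 6715 and 7419 in the UB, 5505, 5102 and 5039 in the WD with mesoderm and 4177, 3134 and 3959 in the WD, without overlap. Groups without overlap in the same direction were found for 18.3% of all probe sets in UB against WD. The share was 20% in UB against WD with mesoderm and 13.5% in WD with mesoderm against WD. Hes6 was higher in UB than in WD by 0.97 ± 0.15 (adjusted p = 5.96e-04) and than in the WD with mesoderm by 0.49 ± 0.15 (adjusted p = 0.0292). The larger difference lost its call with the spike batch term (adjusted p = 0.0663). The smaller lost it in 6 of 19 alternatives, with 0.132 and 0.0808 without UB replicates 1 and 3 and 0.0821 and 0.0666 without WD with mesoderm replicates 2 and 3. Heyl was lower in UB than in WD by -1.42 ± 0.44 (adjusted p = 0.0291), but its other probe set differed by -0.33 ± 0.42 (adjusted p = 0.573). The Heyl call was lost in 9 of 17 alternatives. These included leaving out UB replicates 1 or 2 (0.0550 and 0.0878) and WD replicates 1 or 2 (0.0673 and 0.0903). The difference was -0.81 with quantile normalization (0.199) and -0.95 with median centring (0.0918). Heyl was also not called with the spike batch term (0.377) or after adjustment for beta-actin (0.0687). Hey2 and the feedback inhibitor Nrarp were tested and not called, and of the 11 genes listed in this role 5 were tested, Hes2, Hes3 and Hes5 not being among them.

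In the cleavage machinery the called differences were all below 1 in size. Of 7 genes tested, 0 were called higher and 3 lower in UB than in WD, beside 11.3% and 18.6% of all probe sets, the gamma-secretase subunits Psenen (-0.67 ± 0.16, adjusted p = 0.00828) and Ncstn (-0.41 ± 0.14, adjusted p = 0.0411) and the receptor-processing protease Furin (-0.56 ± 0.16, adjusted p = 0.0226). Psenen was lower in UB than in the WD with mesoderm as well (-0.62 ± 0.16, adjusted p = 0.0115), a call lost without WD with mesoderm replicate 2 (0.0552). Without single arrays Ncstn ranged from 0.0569 to 0.140 and was never called, turning to 0.05 with median centring. The other Ncstn probe set had a UB minus WD difference of -0.04 ± 0.38 (adjusted p = 0.948). Furin was lost without UB replicates 1 or 2 (0.0979 and 0.0533) and without WD replicates 1 or 3 (0.0591 and 0.0707). With median centring the UB minus WD differences were -0.10 for Furin (0.733) and -0.21 for Psenen (0.522), and Psenen against the WD with mesoderm was -0.26 (0.431). The UB minus WD calls of Furin and Psenen were also lost with a spike batch term (0.455 and 0.128) and after adjustment for beta-actin (0.0635 and 0.102). In the WD with mesoderm against the WD 2 were called lower, beside 7.06% of all probe sets, the presenilin Psen2 (-0.75 ± 0.18, adjusted p = 0.0187) and the sheddase Adam17 (-0.45 ± 0.13, adjusted p = 0.0409). Psen2 was lost in 7 of 19 alternatives. Among them were leaving out WD replicate 3 (0.0509) or WD with mesoderm replicate 3 (0.0537), median centring (0.0711) and adjustment for beta-actin (0.0961). Adam17 was lost in 13 of 19 alternatives, with 0.0508, 0.0789 and 0.101 without WD replicates 1, 2 and 3 and 0.0954 and 0.107 without WD with mesoderm replicates 1 and 3.

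In the nuclear complex Rbpj itself, was not called in any comparison. The probe set that stands for it read 11816, 12502 and 10993 in the UB, 11844, 11864 and 13046 in the WD with mesoderm and 10731, 15033 and 10979 in the WD. The UB minus WD difference was -0.04 (95% interval -0.36 to 0.28) and the WD with mesoderm minus WD difference 0.02 (95% interval -0.30 to 0.33), and its other 2 probe sets were not called. Of 16 genes of this role, 0 were called higher and 3 lower in UB than in WD, the coactivator Maml2 (-1.35 ± 0.22, adjusted p = 9.34e-04) and the corepressors Tle1 (-0.80 ± 0.14, adjusted p = 0.00132) and Tle2 (-0.81 ± 0.20, adjusted p = 0.0102), where 18.6% of all probe sets were called lower. These counts use the probe set that stands for each gene. For Hdac1 that was 0.31 ± 0.19 (adjusted p = 0.221), while another Hdac1 probe set was called higher in UB than in WD (1.17 ± 0.29, 0.00997). With median centring the differences of Tle1 and Tle2 were -0.34 and -0.34 and not called (adjusted p = 0.249 and 0.232). A spike batch term ended the UB minus WD calls of Maml2 (0.0823), Tle1 (0.106) and Tle2 (0.484), and adjustment for beta-actin that of Tle2 (0.0735). Tle1 was lower in UB than in the WD with mesoderm by -1.27 ± 0.14 (adjusted p = 2.36e-05), and Maml2 by -0.80 ± 0.22 (adjusted p = 0.0188). Maml2 lost the call against the WD with mesoderm without UB replicates 1 or 3 (0.0662 and 0.0744) and without WD with mesoderm replicates 1 or 3 (0.0535 and 0.0504). That call was also lost in the fit on gene means of probe sets (-0.42, 0.199). The other tested Maml2 probe sets were not called there, at 0.12 ± 0.41 (0.87) and -0.57 ± 0.30 (0.195). In UB minus WD they were -1.14 ± 0.41 (0.0556) and -0.76 ± 0.30 (0.0743), again not called. Between the duct groups Tle1 was higher with mesoderm by 0.47 ± 0.14 (adjusted p = 0.0436), lost in 13 of 19 alternatives, with 0.0821, 0.0570 and 0.105 without WD replicates 1, 2 and 3 and 0.135 and 0.102 without WD with mesoderm replicates 2 and 3.

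Of the genes that act on receptor turnover, Numbl, related to the Notch inhibitor Numb, read 599, 642 and 731 in the UB, 1448, 1600 and 1496 in the WD with mesoderm and 1210, 1257 and 1521 in the WD. It was lower in UB than in the WD with mesoderm by -1.15 ± 0.21 (adjusted p = 0.00125) and than in the WD by -0.96 ± 0.21 (adjusted p = 0.00487). The second call was lost with quantile normalization (0.0542), median centring (0.112) and a spike batch term (0.217). Nedd4, a ubiquitin ligase, was lower in UB than in WD by -0.46 ± 0.13 (adjusted p = 0.0177). This call was lost without UB replicates 1 or 3 (0.0582 and 0.0627) and without WD replicate 2 (0.0602), its sign turned with median centring, and its other probe sets differed in both directions.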

How the data were processed

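Per the labels' protocols, biotinylated cRNA from total RNA was read on 9 Affymetrix arrays of 1 colour. The authors deposited a linear intensity per probe set, made with GCOS per the submitters' processing notes, whose version and summary algorithm were not given in the sources used here, and no detection calls were used. All arrays share a mean of 2501 intensity units with 2% of probe sets left out at each end, so they had been scaled and differences are relative to the other genes. Gene names come from the platform table, with current symbols through Entrez ID (20826 probe sets with 1 symbol, 436 with several, 9780 with none), and among the tested probe sets of a gene the one highest on average in log2 represents it. Promoters come from RefSeq, build GRCr8.

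Values were tested as log2(intensity + 46), with a pseudocount at percentile 10 of the values, which understates differences of weak genes. Control probe sets (57) were left out and 20330 probe sets passed the filter. One limma fit (version 3.58.1, R 4.3.3) over the 9 arrays, with a mean per group and no other term, gave all 3 comparisons (mean-variance trend, 6 residual and 6.08 prior degrees of freedom), followed by Benjamini-Hochberg adjustment in each comparison. All adjusted p-values come from limma, two-sided. The procedure was tested on simulated data.

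The members, lists, markers and alternatives were chosen with earlier results of these data known. All 9 genes are named, and of the 69 others those called, up to 3 per role and comparison or all where 5 or fewer were called. Rbpj, Notch4, Hey2 and Nrarp fall outside that rule. Closest genes are given for members called at least once, passing over provisional symbols. The alternatives were 2 other scalings, pseudocounts of 16 and 150, other filters, a fit of 2 groups alone, a replicate block, array weights, the mean of a gene's probe sets, the spike and beta-actin terms and leaving out each array. Sign changes between fits that both left a gene uncalled were disregarded.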

Additional observations from a re-analysis of the deposited data

How the results depend on the processing

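The numbers of Notch pathway genes called moved with the processing. Between UB and WD, where 1 was called, 0 were called with quantile normalization, the spike batch term or the beta-actin covariate, 2 with median centring and 3 with array weights or the mean of a gene's probe sets, and 1 to 2 with 1 array left out (2 without UB replicate 2, WD replicate 1 or WD replicate 3). Between WD with mesoderm and WD, where 2 were called, 1 was with the beta-actin covariate and 2 with any array left out. Between UB and WD with mesoderm, where 3 were called, 1 was with the spike batch term and 1 to 3 with 1 array left out (1 without UB replicate 2 or WD with mesoderm replicate 3).

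Of the other pathway genes, the 14 called between UB and WD became 2 when the spike batch was a term, 7 when beta-actin was a covariate and 9 to 12 with 1 array left out (9 without UB replicate 1). The 4 called between WD with mesoderm and WD became 7 with quantile normalization, 2 with median centring, no filter, array weights, the spike batch term or the replicate block, 1 in a fit of the 2 groups alone or within the arrays of low spike ratio, 0 with the beta-actin covariate, and 1 to 4 with 1 array left out (1 without WD replicate 2, 2 without WD with mesoderm replicate 2 or 3). The 10 called between UB and WD with mesoderm became 16 with array weights, 6 with the spike batch term or within the arrays of high spike ratio, and 6 to 10 with 1 array left out (6 without UB replicate 1). In UB against WD, Nedd4 turned to 0.003 and Ncstn to 0.05 with median centring, and Nedd4 to 0.091 with the mean of its probe sets.

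Over all probe sets, the 6073 calls of UB against WD became 798 when the spike batch was a term, 3276 when beta-actin was a covariate and 3743 (without UB replicate 1) to 5569 with 1 array left out. The 2578 of WD with mesoderm against WD became 1444 within the arrays of low spike ratio, 826 with the beta-actin covariate and 1778 to 2715 with 1 array left out, and the 5176 of UB against WD with mesoderm became 2414 with the spike batch term, 2991 within the arrays of high spike ratio and 3637 to 5280 with 1 array left out. Of these calls 37.8% were higher in UB against WD, 50.9% with quantile normalization and 79.2% with median centring. For WD with mesoderm against WD the shares were 44.3%, 49.6% and 57.4%, and for UB against WD with mesoderm 43%, 49.4% and 72%. The cause of these shifts was not tested. In UB against WD the spike batch term is told from the tissue only through the WD with mesoderm arrays. A call lost there can reflect a wider standard error. In UB against WD, the deviations of arrays of the same replicate number had r = 0.068 to 0.277 over probe sets. In the other comparisons r was -0.348 to 0.062. In the 3 comparisons, 4 of 6, 1 of 6 and 0 of 6 arrays correlated best with their own number. With the replicate block 1, 2 and 2 of the 7 Notch pathway genes were called in UB against WD, WD with mesoderm against WD and UB against WD with mesoderm, 13, 2 and 8 of the other pathway genes and 5338, 2194 and 4606 of all probe sets. The block ended the calls of Ncstn (UB against WD, adjusted p = 0.0585), Adam17 and Tle1 (WD with mesoderm against WD, 0.0678 and 0.0607) and Lfng, Dll4 and Rfng (UB against WD with mesoderm, 0.0575, 0.0737 and 0.0766). Weak signals cannot be told from background without detection calls.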
